A study of Rattus norvegicus with 54 samples.

Results

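The platelet-derived growth factor (PDGF) system and the genes used to mark pericytes were examined in the left ventricle of rats 1 week after myocardial infarction, with and without a sheet of human cells on the heart. The set holds 10 genes of the 40319 gene rows in the count tables, matched by symbol, and all 10 passed the filter on low counts in every comparison: the 4 ligand genes Pdgfa, Pdgfb, Pdgfc and Pdgfd, the 2 receptor genes Pdgfra and Pdgfrb, and the 4 pericyte-associated genes Rgs5, Cspg4, Kcnj8 and Abcc9. Poly(A) RNA was sequenced from 18 female athymic nude rats (F344/NJcl-rnu/rnu, 8 weeks old), which lack T cells and therefore tolerate human cells. The 3 treatments, with 6 animals each, were a sham operation (Sham), permanent ligation of the left anterior descending artery (MI), and the same ligation followed by placement of a bi-level sheet of human endothelial progenitor cells and mesenchymal stem cell-derived smooth muscle cells on the epicardium (MI+Cell Sheet, here cell sheet). Tissue was taken in each heart from the infarct zone (anterior wall), the border zone (lateral wall) and the remote zone (septum), which gives 54 libraries in 9 groups of 6. In sham hearts the zone names refer to position alone.

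PDGF ligands act as paired chains on 2 receptor tyrosine kinases. PDGF-A, PDGF-B and PDGF-C chains bind the alpha receptor, which marks fibroblasts in the heart, while PDGF-B and PDGF-D chains bind the beta receptor, which is carried by pericytes, vascular smooth muscle cells and also activated fibroblasts. Endothelial cells release PDGF-B to recruit pericytes, the contractile cells that wrap capillaries, and the heart is rich in them. Rgs5 (a regulator of G protein signalling) and Cspg4 (the NG2 proteoglycan) are used as mural cell markers, and Kcnj8 (Kir6.1) and Abcc9 (SUR2) encode the pore and the regulatory subunit of an ATP-sensitive potassium (KATP) channel of pericytes. None of the 10 genes is restricted to pericytes. In particular, SUR2 is also the regulatory subunit of the KATP channel of cardiac muscle, and Kcnj8 and Pdgfb are expressed in endothelial cells too.

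Each library held 12699204 to 23397754 counts on genes, and the lowest count of any of the 10 genes in any library was 67 (Pdgfc). Counting error was not separated from the differences between animals. It weighs most on Pdgfc and Pdgfd, whose counts were the lowest of the set. Levels are given as CPM (counts divided by the TMM effective library size and brought to a common total), differences as log2 fold changes, and a gene was called where its edgeR adjusted p was under 0.05 over all genes tested. CPM values are not divided by transcript length, and levels are compared between groups and not between genes. The labels number the 6 libraries of a group as technical replicates while the study describes 6 hearts, so the p-values measure the spread between these libraries, whatever their source. In bulk tissue, fewer cells of a type and less RNA per cell cannot be told apart. Libraries of 3 animals stood apart from their groups. The libraries of sham replicate 5 had a summed macrophage marker level of 12316, 12295 and 7067 CPM in infarct, border and remote zone. The other 5 sham animals had 403 to 792, 332 to 677 and 329 to 671. Its cardiomyocyte and endothelial marker sums were the lowest of the sham group in each zone. The remote zone of cell sheet replicate 1 had a fibroblast marker sum of 41417 CPM against 5926 to 13392 in the other 5, and a cardiomyocyte marker sum of 26588 against 55336 to 77662. In the border zone its cardiomyocyte marker sum was 194 CPM against 10084 to 35869.5 in the other 5. The infarct zone of MI replicate 1 held less of the fibroblast markers (18319 CPM against 30872 to 42527) and more of the cardiomyocyte markers (41976 against 3671 to 26888) than the other 5 MI hearts. All libraries were kept, and results that rest on these animals are given with and without them.

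The 10 genes differed in how far their level moved over the 9 groups. The ratio of the highest to the lowest group level was 3.63 for Pdgfrb, 3.58 for Abcc9, 2.84 for Pdgfd, 2.54 for Pdgfc and 2.24 for Pdgfra. The other 5 genes moved less, with ratios from 1.34 for Pdgfa to 1.83 for Cspg4. Pdgfc, Pdgfd and Pdgfrb were highest in the cell sheet infarct zone, and Pdgfra in the cell sheet border zone. Pdgfa, Rgs5, Cspg4 and Abcc9 were highest in the cell sheet remote zone, Pdgfb in the sham remote zone and Kcnj8 in the sham border zone. The lowest group was the MI infarct zone for Rgs5 and Kcnj8, the MI border zone for Pdgfb, Cspg4 and Abcc9, and the MI remote zone for Pdgfa. When the 9 groups were ordered by mean log2 CPM, neighbouring groups differed by less than the larger of their SDs in all 8 steps for 8 of the genes. The exceptions were 1 step for Pdgfra, between the cell sheet and the MI infarct zone, and 1 step for Pdgfrb, between the MI border and the MI remote zone.

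**Figure D1:**
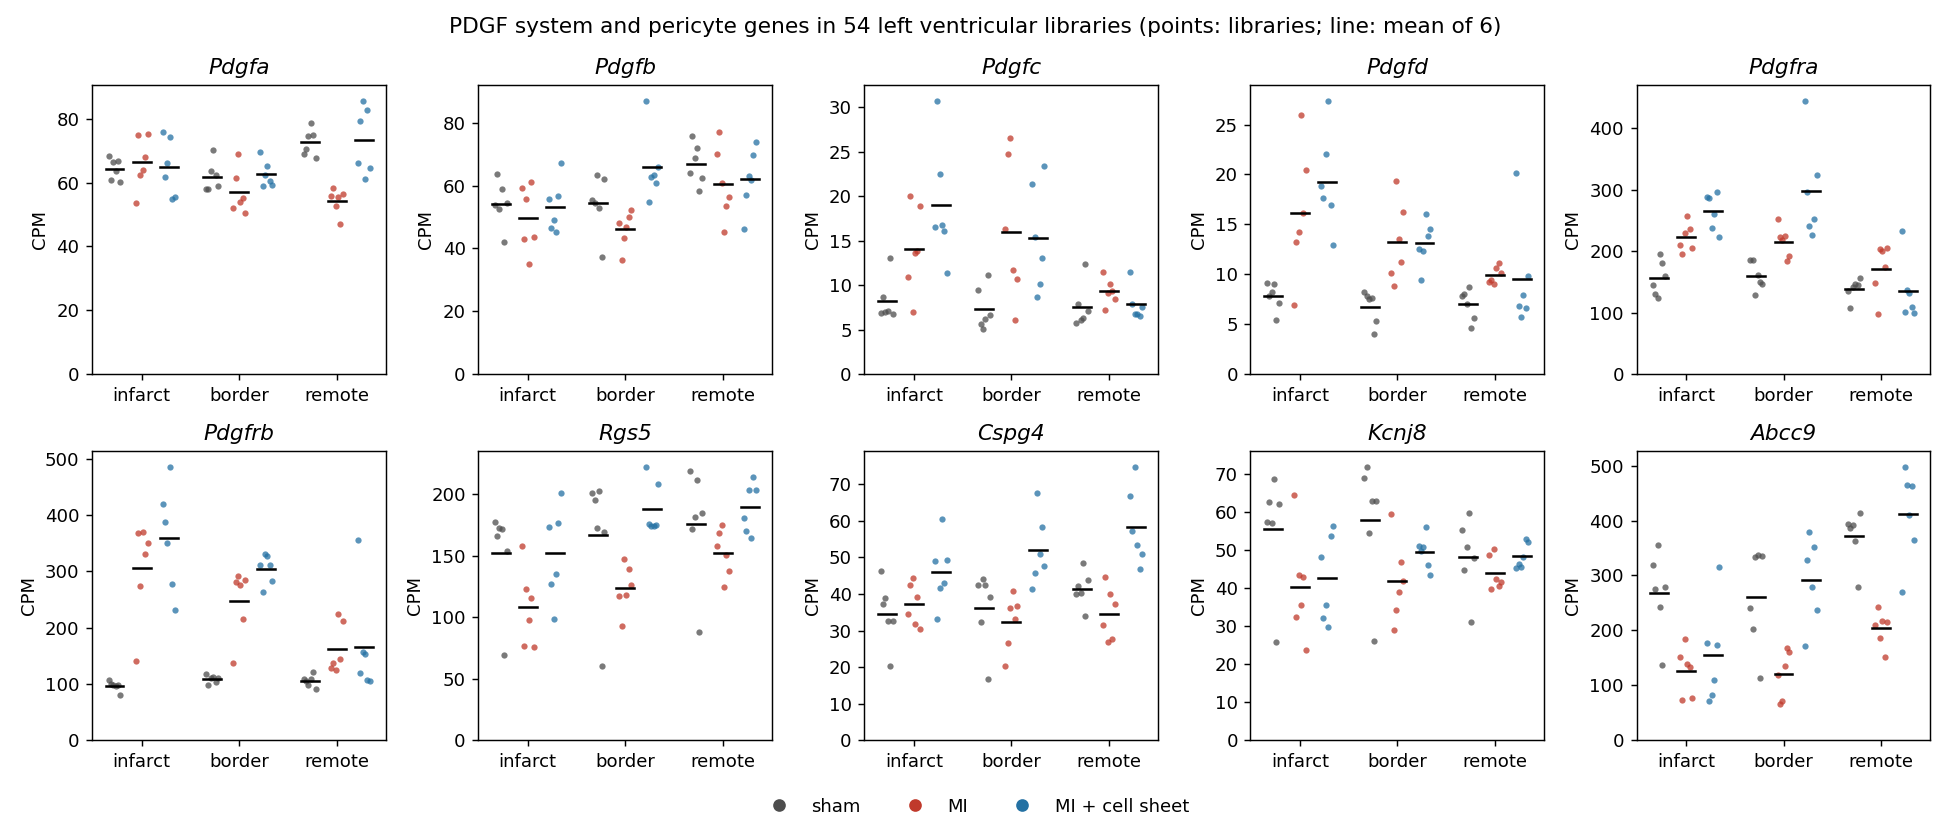
Level of each of the 10 genes in all 54 libraries (y axis, CPM, from 0 with a separate range in each panel) by zone (x axis) and treatment (colour), where a point is 1 library and a line the mean of 6. Pdgfrb in sham hearts lay between 79.4 and 121 CPM, below every MI library of the same zone, while sham replicate 5 lies far below the other sham libraries for Rgs5 in the infarct and border zones.

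Among the ligands, Pdgfc and Pdgfd were higher after MI in the infarct and border zones, while Pdgfa was lower in the remote zone and Pdgfb passed the test in no zone. These comparisons of MI with sham hearts ask how the infarct changes each zone. Pdgfa encodes a chain that activates the alpha receptor alone. Pdgfa in the infarct zone had lowest, median and highest levels of 60.1, 65.05 and 68.5 CPM in sham, 53.7, 65.9 and 75.3 CPM in MI and 54.8, 64.1 and 75.9 CPM in cell sheet hearts. Pdgfa in the border zone ran at 58.0, 60.6 and 70.3 CPM in sham, 50.5, 54.6 and 68.8 CPM in MI and 58.9, 61.4 and 69.5 CPM in cell sheet hearts. The 3 treatments overlapped in both of these zones, and no difference passed the test, with MI minus sham at 0.041 ± 0.090 (edgeR adjusted p = 0.72) in the infarct and -0.12 ± 0.092 (edgeR adjusted p = 0.31) in the border zone. Pdgfa in the remote zone ran at 67.8, 72.6 and 78.8 CPM in sham, 47.0, 55.7 and 58.2 CPM in MI and 61.1, 72.8 and 85.5 CPM in cell sheet hearts. There all 6 MI libraries lay below all 6 sham and all 6 cell sheet libraries. Pdgfa fell in the MI remote zone relative to sham, at -0.42 ± 0.073 (log2 fold change ± SE, n = 6 and 6, edgeR adjusted p = 0.00207), and rose in cell sheet relative to MI hearts by 0.42 ± 0.10 (log2 fold change ± SE, n = 6 and 6, edgeR adjusted p = 0.0174). The cell sheet and sham remote zones overlapped, with a difference of -0.0084 ± 0.092 (edgeR adjusted p = 0.99) and a 95% interval of -0.21 to 0.19 on the log2 scale.

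Pdgfb, the endothelial ligand of the beta receptor, rose in the cell sheet border zone relative to MI. Pdgfb in the border zone had lowest, median and highest levels of 37.3, 55.0 and 63.5 CPM in sham, 36.3, 47.5 and 52.3 CPM in MI and 54.9, 63.1 and 86.9 CPM in cell sheet hearts. Every cell sheet library exceeded every MI library, while the sham libraries overlapped both, with replicate 5 the lowest of them. The cell sheet difference from MI was 0.53 ± 0.12 (log2 fold change ± SE, n = 6 and 6, edgeR adjusted p = 0.00919), and that from sham 0.26 ± 0.14 (edgeR adjusted p = 0.15). MI minus sham was -0.24 ± 0.13 (edgeR adjusted p = 0.16) with all animals, and -0.32 (edgeR adjusted p = 0.0121) without sham replicate 5. Pdgfb in the infarct zone ran at 42.1, 54.1 and 63.7 CPM in sham, 35.1, 49.7 and 61.1 CPM in MI and 45.2, 52.4 and 67.1 CPM in cell sheet hearts, and in the remote zone at 58.3, 66.4 and 75.7 CPM in sham, 45.2, 58.7 and 77.1 CPM in MI and 46.4, 62.4 and 73.8 CPM in cell sheet hearts. In both zones the 3 treatments overlapped, and the log2 differences between treatments, -0.15 to 0.10, did not pass the test.

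Pdgfc and Pdgfd encode chains that are secreted inactive and released by proteolysis, for which tissue and urokinase plasminogen activator are the known proteases. Both were among the least abundant counts of the set, at 67 to 710 counts per library for Pdgfc and 68 to 593 for Pdgfd. Pdgfc in the infarct zone had lowest, median and highest levels of 6.72, 7.02 and 13.0 CPM in sham, 6.95, 13.7 and 20.0 CPM in MI and 11.4, 16.6 and 30.7 CPM in cell sheet hearts. Pdgfc in the border zone ran at 5.07, 6.395 and 11.1 CPM in sham, 6.06, 14.01 and 26.5 CPM in MI and 8.69, 14.3 and 23.4 CPM in cell sheet hearts. The MI and sham ranges overlapped in both zones, with sham replicate 5 the highest sham library in each. Pdgfc rose after MI by 0.76 ± 0.26 (log2 fold change ± SE, n = 6 and 6, edgeR adjusted p = 0.0278) in the infarct and 1.12 ± 0.35 (edgeR adjusted p = 0.0225) in the border zone, and in cell sheet relative to sham hearts by 1.23 ± 0.24 (edgeR adjusted p = 0.00127) and 1.05 ± 0.28 (edgeR adjusted p = 0.0101). These values lay near the threshold: leaving out any of sham replicates 1, 3, 4 and 6 or MI replicates 2 and 6 ended the infarct zone call, and leaving out sham replicate 3 or MI replicates 2 and 3 ended the border zone call. The log2 fold change of Pdgfc was then 0.64 to 0.72 in the infarct and 0.92 to 1.03 in the border zone, with an edgeR adjusted p of 0.0580 to 0.0680 and of 0.0516 to 0.0561. Pdgfc in the remote zone ran at 5.69, 6.68 and 12.3 CPM in sham, 7.23, 9.20 and 11.5 CPM in MI and 6.50, 7.18 and 11.5 CPM in cell sheet hearts. The treatments overlapped there, and the highest sham and cell sheet values were those of sham replicate 5 and cell sheet replicate 1. Without these animals the remote differences of Pdgfc were 0.49 (edgeR adjusted p = 0.0166) for MI minus sham and -0.40 (edgeR adjusted p = 0.0371) for cell sheet minus MI, against 0.29 ± 0.21 (edgeR adjusted p = 0.32) and -0.25 ± 0.17 (edgeR adjusted p = 0.31) with all animals.

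Pdgfd, whose product binds the beta receptor, rose in all 3 zones after MI. Pdgfd in the infarct zone had lowest, median and highest levels of 5.44, 7.999 and 9.08 CPM in sham, 6.90, 15.2 and 26.0 CPM in MI and 12.9, 18.2 and 27.3 CPM in cell sheet hearts. Pdgfd in the border zone ran at 4.06, 7.53 and 8.21 CPM in sham, 8.83, 12.4 and 19.4 CPM in MI and 9.42, 13.2 and 16.1 CPM in cell sheet hearts. Pdgfd in the remote zone ran at 4.63, 7.44 and 8.72 CPM in sham, 9.07, 9.81 and 11.1 CPM in MI and 5.69, 7.37 and 20.1 CPM in cell sheet hearts. In the border and remote zones every MI library exceeded every sham library, and in the infarct zone only MI replicate 1 fell within the sham range. The rise over sham was 1.05 ± 0.26 (log2 fold change ± SE, n = 6 and 6, edgeR adjusted p = 0.00671) in the infarct, 0.97 ± 0.23 (edgeR adjusted p = 0.00744) in the border and 0.51 ± 0.16 (edgeR adjusted p = 0.0344) in the remote zone. The remote zone call was lost on leaving out any of sham replicates 3 and 6 or MI replicates 4, 5 and 6, with edgeR adjusted p of 0.0599 to 0.0784 for Pdgfd. Cell sheet hearts were higher than sham by 1.32 ± 0.20 (edgeR adjusted p = 0.000292) in the infarct and 0.95 ± 0.19 (edgeR adjusted p = 0.00217) in the border zone, with no overlap. Relative to MI, the cell sheet difference of Pdgfd was 0.26 ± 0.27 (edgeR adjusted p = 0.83) in the infarct and 0.0035 ± 0.20 (edgeR adjusted p = 0.99) in the border zone. In the remote zone it was -0.067 ± 0.28 (edgeR adjusted p = 0.88) with all animals and -0.44 (edgeR adjusted p = 0.0352) without cell sheet replicate 1, the highest library of the group at 20.1 CPM.

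Both receptors rose after MI in the infarct and border zones, Pdgfrb more than Pdgfra. Pdgfra, the alpha receptor, in the infarct zone had lowest, median and highest levels of 124, 152 and 196 CPM in sham, 194, 219.8 and 258 CPM in MI and 223, 273 and 297 CPM in cell sheet hearts. Pdgfra in the border zone ran at 129, 156 and 186 CPM in sham, 183, 221 and 252 CPM in MI and 227, 274 and 443 CPM in cell sheet hearts. MI and sham hearts overlapped at the edges of their ranges in both zones, with a single MI library inside the sham range in each, and all cell sheet libraries lay above all sham libraries. Pdgfra rose after MI by 0.51 ± 0.13 (log2 fold change ± SE, n = 6 and 6, edgeR adjusted p = 0.00719) in the infarct and 0.43 ± 0.12 (edgeR adjusted p = 0.0125) in the border zone, and in cell sheet relative to sham hearts by 0.78 ± 0.13 (edgeR adjusted p = 0.000475) and 0.89 ± 0.17 (edgeR adjusted p = 0.00165). The border zone difference of Pdgfra between cell sheet and MI hearts was 0.48 ± 0.16 (edgeR adjusted p = 0.0569), and this call turned with the setting, since DESeq2 gave an adjusted p of 0.0291. Pdgfra in the remote zone ran at 107, 143 and 156 CPM in sham, 97.0, 187 and 205 CPM in MI and 99.97, 121 and 233 CPM in cell sheet hearts. The remote ranges of the 3 treatments overlapped. The lowest MI library was replicate 2, and without it MI minus sham was 0.42 (edgeR adjusted p = 0.0176), against 0.30 ± 0.16 (edgeR adjusted p = 0.19) with all. Cell sheet minus MI was -0.35 ± 0.23 (edgeR adjusted p = 0.30), and -0.58 (edgeR adjusted p = 0.0162) without cell sheet replicate 1, whose Pdgfra level of 233 CPM was the highest of its group.

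Pdgfrb, the beta receptor of mural cells, was higher in every MI library than in every sham library of the same zone. Pdgfrb in the infarct zone had lowest, median and highest levels of 79.4, 98.1 and 107 CPM in sham, 141, 341 and 370.0 CPM in MI and 232, 369.7 and 485 CPM in cell sheet hearts. Pdgfrb in the border zone ran at 98.4, 111 and 117 CPM in sham, 138, 278 and 292 CPM in MI and 263, 311 and 332 CPM in cell sheet hearts. Pdgfrb in the remote zone ran at 90.9, 106 and 121 CPM in sham, 125, 141 and 224 CPM in MI and 106, 136 and 357 CPM in cell sheet hearts. The lowest MI library in the infarct and border zones was replicate 1. Pdgfrb rose after MI by 1.66 ± 0.20 (log2 fold change ± SE, n = 6 and 6, edgeR adjusted p = 0.000146) in the infarct zone, which is 3.17-fold, by 1.19 ± 0.17 (edgeR adjusted p = 0.000507) in the border and by 0.61 ± 0.15 (edgeR adjusted p = 0.0125) in the remote zone. Cell sheet hearts exceeded sham hearts by 1.91 ± 0.18 (edgeR adjusted p = 1.8e-05) in the infarct and 1.48 ± 0.087 (edgeR adjusted p = 1.7e-06) in the border zone, again with no overlap. In the remote zone the cell sheet range overlapped both others and its highest library was replicate 1, at 357 CPM. The differences between cell sheet and MI hearts were 0.23 ± 0.24 (edgeR adjusted p = 0.83), 0.31 ± 0.17 (edgeR adjusted p = 0.22) and 0.037 ± 0.30 (edgeR adjusted p = 0.94) in the infarct, border and remote zones, with 95% intervals of -0.29 to 0.75, -0.053 to 0.68 and -0.60 to 0.68. Without cell sheet replicate 1 the remote value of Pdgfrb was -0.35 (edgeR adjusted p = 0.13). The fibroblast marker sum moved with Pdgfrb: its median was 8999 CPM in sham, 34812 in MI and 50492 in cell sheet hearts in the infarct zone. What part fibroblasts had in the level of Pdgfrb was not tested.

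Rgs5, a regulator of G protein signalling in pericytes, showed no rise after MI that passed the test, and it rose in the cell sheet border zone relative to MI. Rgs5 in the infarct zone had lowest, median and highest levels of 69.3, 169 and 178 CPM in sham, 76.0, 107 and 158 CPM in MI and 98.5, 154 and 201 CPM in cell sheet hearts. Rgs5 in the border zone ran at 60.4, 184 and 203 CPM in sham, 92.6, 122 and 147 CPM in MI and 174, 176 and 222 CPM in cell sheet hearts. Rgs5 in the remote zone ran at 87.9, 183 and 219 CPM in sham, 124, 154 and 175 CPM in MI and 164, 192 and 214 CPM in cell sheet hearts. MI and sham ranges overlapped in each zone. Sham replicate 5 lay far below the other sham hearts, and its endothelial marker sum in the infarct zone was 944 CPM against 1934 to 2196 in the other 5. With all animals no MI difference of Rgs5 passed the test, at -0.49 ± 0.24 (edgeR adjusted p = 0.10), -0.44 ± 0.24 (edgeR adjusted p = 0.16) and -0.21 ± 0.18 (edgeR adjusted p = 0.41) in the infarct, border and remote zones. Without sham replicate 5 they were -0.64 (edgeR adjusted p = 0.00723), -0.61 (edgeR adjusted p = 0.000861) and -0.34 (edgeR adjusted p = 0.0109). In the border zone the other 5 sham libraries then all exceeded the 6 MI libraries. The infarct zone call was also reached without MI replicate 1, the highest MI library there, at -0.63 (edgeR adjusted p = 0.0466). Rgs5 rose in the cell sheet border zone relative to MI by 0.63 ± 0.12 (log2 fold change ± SE, n = 6 and 6, edgeR adjusted p = 0.00429), with every cell sheet library above every MI library. The remote zone difference from MI was 0.30 ± 0.11 (edgeR adjusted p = 0.0659), and 0.31 (edgeR adjusted p = 0.0323) without cell sheet replicate 1, while the infarct zone difference of 0.49 ± 0.22 (edgeR adjusted p = 0.58) did not pass. The differences of Rgs5 between cell sheet and sham hearts, from 0.00051 to 0.16, did not pass the test in any zone.

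Cspg4 rose in the border and remote zones of cell sheet hearts relative to MI. Cspg4 encodes NG2, a proteoglycan on the surface of pericytes and smooth muscle cells that binds PDGF-A. Cspg4 in the border zone had lowest, median and highest levels of 16.7, 40.7 and 44.1 CPM in sham, 20.2, 34.7 and 40.8 CPM in MI and 41.4, 49.4 and 67.7 CPM in cell sheet hearts. Cspg4 in the remote zone ran at 34.05, 41.2 and 48.5 CPM in sham, 26.8, 34.3 and 44.8 CPM in MI and 46.8, 55.3 and 74.7 CPM in cell sheet hearts. In both zones every cell sheet library lay above every MI library, and sham hearts overlapped both groups. The cell sheet difference from MI was 0.70 ± 0.17 (log2 fold change ± SE, n = 6 and 6, edgeR adjusted p = 0.0141) in the border and 0.74 ± 0.15 (edgeR adjusted p = 0.0109) in the remote zone. Cspg4 in the infarct zone ran at 20.2, 34.9 and 46.2 CPM in sham, 30.4, 36.8 and 44.5 CPM in MI and 33.2, 46.0 and 60.6 CPM in cell sheet hearts. The 3 treatments overlapped there. No MI difference from sham passed the test for Cspg4, at 0.10 ± 0.17 (edgeR adjusted p = 0.64), -0.17 ± 0.23 (edgeR adjusted p = 0.58) and -0.26 ± 0.13 (edgeR adjusted p = 0.17). The differences between cell sheet and sham hearts were 0.42 ± 0.20 (edgeR adjusted p = 0.0901), 0.51 ± 0.21 (edgeR adjusted p = 0.0711) and 0.48 ± 0.12 (edgeR adjusted p = 0.20). Leaving out sham replicate 1 took the infarct difference of Cspg4 to 0.52 (edgeR adjusted p = 0.0498), and leaving out sham replicate 5 took the border difference to 0.36 (edgeR adjusted p = 0.0293).

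The smooth muscle contractile list was set beside these values. Of its 9 genes, 7 rose and 2 fell in the MI infarct zone relative to sham, where 49.9% of all genes were called. The list median was 2.68 against -0.021 over all genes tested. The myofibroblast marker sum had infarct zone medians of 86.7 CPM in sham and 2981 in MI hearts, and what cells gave the rise was not tested. In cell sheet relative to MI hearts, 2 of the 9 rose in the border and 4 in the remote zone, beside 18.0% and 17.1% of all genes called. Myh11, the smooth muscle myosin heavy chain, was up there by 1.37 ± 0.26 (edgeR adjusted p = 0.00443) and 2.20 ± 0.18 (edgeR adjusted p = 0.000169). Its part in the level of Cspg4 was not tested.

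Abcc9 fell in all 3 zones after MI and was higher in the border and remote zones of cell sheet hearts than in MI hearts, while Kcnj8 passed the test in none of these comparisons. The genes are neighbours on rat chromosome 4, on the minus strand, with RefSeq starts 139800 bases apart in the GRCr8 assembly. Of the 10 genes, 9 have a RefSeq promoter entry and Pdgfrb has none. The stretches of 250 bases before each start are shown because the genes supply subunits of the same channel and differed in how far they moved. Capitals mark a match to GGGCGG on the other strand. These letters, the core of the binding site of Sp1-type factors, were searched on both strands and are present in 33.1% of the 33469 promoters of that table, which run from 250 bases before to 50 after the start.
Kcnj8, chr4:177246549-177246798: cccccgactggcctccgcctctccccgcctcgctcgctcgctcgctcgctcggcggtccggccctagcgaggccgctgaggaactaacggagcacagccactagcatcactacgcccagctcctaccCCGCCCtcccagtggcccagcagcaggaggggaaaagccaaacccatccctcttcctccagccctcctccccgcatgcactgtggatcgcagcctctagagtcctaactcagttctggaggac
Abcc9, chr4:177386349-177386598: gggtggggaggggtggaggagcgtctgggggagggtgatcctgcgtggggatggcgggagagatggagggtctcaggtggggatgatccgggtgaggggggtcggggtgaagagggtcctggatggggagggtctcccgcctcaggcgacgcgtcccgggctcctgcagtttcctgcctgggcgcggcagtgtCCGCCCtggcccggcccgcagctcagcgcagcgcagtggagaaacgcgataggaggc
Both windows hold a single match. The letters TATAAA were found in neither window on either strand, nor were those of the CCAAT box or of the CArG box. The letters of the MEF2 motif, named for a family of muscle transcription factors, were matched in Abcc9 and in no other of the 9 promoters. They stand in 3.29% of all the promoters, and in Abcc9 they lie just after the start, shown in capitals within 30 bases.
Abcc9, chr4:177386308-177386337: tcccaccaccCTAAAAATAAtccactcgcc
A match is a description of the letters and not a shown binding site.

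Kcnj8 in the infarct zone had lowest, median and highest levels of 25.7, 59.9 and 68.7 CPM in sham, 23.7, 39.2 and 64.5 CPM in MI and 29.8, 41.9 and 56.3 CPM in cell sheet hearts. Kcnj8 in the border zone ran at 26.0, 63.0 and 71.8 CPM in sham, 29.1, 40.5 and 59.5 CPM in MI and 43.5, 50.2 and 56.03 CPM in cell sheet hearts. Kcnj8 in the remote zone ran at 31.2, 49.3 and 59.9 CPM in sham, 39.7, 42.1 and 50.4 CPM in MI and 45.4, 47.2 and 53.0 CPM in cell sheet hearts. The treatments overlapped in every zone, and in each zone the lowest sham library was replicate 5. MI minus sham was -0.46 ± 0.25 (log2 fold change ± SE, n = 6 and 6, edgeR adjusted p = 0.15) in the infarct, -0.47 ± 0.23 (edgeR adjusted p = 0.12) in the border and -0.13 ± 0.13 (edgeR adjusted p = 0.48) in the remote zone. Without sham replicate 5 it was -0.61 (edgeR adjusted p = 0.0194) in the infarct and -0.62 (edgeR adjusted p = 0.00470) in the border zone. Leaving out MI replicate 1 instead, the highest MI library in both, gave -0.64 (edgeR adjusted p = 0.0473) in the infarct zone. Cell sheet minus MI was 0.073 ± 0.24 (edgeR adjusted p = 0.95), 0.27 ± 0.15 (edgeR adjusted p = 0.23) and 0.13 ± 0.084 (edgeR adjusted p = 0.30) in the infarct, border and remote zones, and the border value without MI replicate 1 was 0.39 (edgeR adjusted p = 0.0481). Against sham, the cell sheet differences of Kcnj8 without sham replicate 5 were -0.54 (edgeR adjusted p = 0.0118) in the infarct and -0.39 (edgeR adjusted p = 0.00266) in the border zone, while with all animals they were -0.39 ± 0.24 (edgeR adjusted p = 0.19) and -0.24 ± 0.20 (edgeR adjusted p = 0.36).

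Abcc9 in the infarct zone had lowest, median and highest levels of 136, 277 and 355 CPM in sham, 73.6, 136 and 185 CPM in MI and 70.4, 142 and 316 CPM in cell sheet hearts. Abcc9 in the border zone ran at 112, 287 and 337 CPM in sham, 65.9, 126 and 168 CPM in MI and 171, 304 and 379 CPM in cell sheet hearts. Abcc9 in the remote zone ran at 279, 389 and 414 CPM in sham, 151, 212 and 243 CPM in MI and 270.3, 437 and 497 CPM in cell sheet hearts. In the remote zone all MI libraries lay below all sham and all cell sheet libraries. In the infarct and border zones sham replicate 5 was the only sham library within the MI range, and the other 5 lay above all MI libraries. Abcc9 fell after MI, at -1.08 ± 0.27 (log2 fold change ± SE, n = 6 and 6, edgeR adjusted p = 0.00621) in the infarct, -1.12 ± 0.31 (edgeR adjusted p = 0.0133) in the border and -0.87 ± 0.12 (edgeR adjusted p = 0.000915) in the remote zone. Cell sheet hearts were higher than MI hearts by 1.298 ± 0.27 (edgeR adjusted p = 0.00638) in the border zone, 2.46-fold with no overlap, and by 1.00 ± 0.15 (edgeR adjusted p = 0.00602) in the remote zone, 2.00-fold with no overlap. In the infarct zone that difference was 0.29 ± 0.36 (edgeR adjusted p = 0.86). Relative to sham, cell sheet hearts differed in Abcc9 by -0.79 ± 0.36 (edgeR adjusted p = 0.0767), 0.15 ± 0.28 (edgeR adjusted p = 0.68) and 0.13 ± 0.14 (edgeR adjusted p = 0.82). Without sham replicate 5 the infarct value was -0.94 (edgeR adjusted p = 0.0270), and without cell sheet replicate 6, the highest of its group, -1.13 (edgeR adjusted p = 0.00764).

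The other KATP channel subunits were set beside these, Kcnj11 (Kir6.2, the pore of the cardiac muscle channel) and Abcc8 (SUR1). Kcnj11 fell after MI, with log2 fold changes of -2.12 ± 0.61 (edgeR adjusted p = 0.0132) in the infarct, -1.89 ± 0.49 (edgeR adjusted p = 0.0106) in the border and -1.08 ± 0.27 (edgeR adjusted p = 0.0125) in the remote zone. Abcc8 fell as well, at -1.89 ± 0.56 (edgeR adjusted p = 0.0153), -1.66 ± 0.52 (edgeR adjusted p = 0.0244) and -0.96 ± 0.26 (edgeR adjusted p = 0.0190). Neither passed the test between cell sheet and MI hearts, where the remote zone values were 0.92 ± 0.30 (edgeR adjusted p = 0.0508) for Kcnj11 and 0.86 ± 0.30 (edgeR adjusted p = 0.0610) for Abcc8. The cardiomyocyte marker sum had medians of 75546, 41081 and 64177 CPM in the sham, MI and cell sheet remote zones and of 68586, 25254 and 24542 in the border zones. In the border zone the cardiomyocyte sums ran from 5213 to 31922 CPM in MI and from 194 to 35869.5 in cell sheet hearts and overlapped, while the Abcc9 ranges did not. The part of cardiac muscle in the level of Abcc9 was not tested.

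Counted over the set, 5 of the 10 genes were called in MI relative to sham in the infarct zone, where 49.9% of all genes tested were called, 5 in the border zone (41.7% of all genes) and 4 in the remote zone (25.8%). These counts are close to the share over all genes in the infarct and border zones. Pdgfc, Pdgfd, Pdgfra and Pdgfrb rose and Abcc9 fell in the infarct and in the border zone, and Pdgfd and Pdgfrb rose while Pdgfa and Abcc9 fell in the remote zone. Without sham replicate 5 the counts were 7, 8 and 6. The share of all genes called was then 64.8%, 60.8% and 46.5%. The median log2 fold change of the 10 genes was 0.071, -0.14 and -0.14, against -0.021, -0.022 and -0.044 over all genes tested. In cell sheet relative to MI hearts, 4 of 10 were higher in the border zone (18.0% of all genes called), namely Pdgfb, Rgs5, Cspg4 and Abcc9, and 3 in the remote zone (17.1%), namely Pdgfa, Cspg4 and Abcc9. Leaving out cell sheet replicate 1 gave 7 in the remote zone, with Rgs5 higher and Pdgfc, Pdgfd and Pdgfra lower added, where 41.6% of all genes were called. In the border zone the same 4 genes were called without it, at 0.44 (edgeR adjusted p = 0.0100) for Pdgfb, 0.58 (edgeR adjusted p = 0.00723) for Rgs5, 0.77 (edgeR adjusted p = 0.0119) for Cspg4 and 1.42 (edgeR adjusted p = 0.00381) for Abcc9, with 18.8% of all genes called. In the infarct zone edgeR called 0 of 10, where 0% of all genes were called. There 2 of the genes, Pdgfra and Rgs5, had an unadjusted p under 0.05 with edgeR, as did 1341 of the 16196 genes tested. DESeq2 called 0 of the 10 and 59 of 18126 genes tested.

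Relative to sham, the same 4 genes, Pdgfc, Pdgfd, Pdgfra and Pdgfrb, were higher in cell sheet hearts in the infarct zone (57.9% of all genes called) and in the border zone (43.6%), shares that are no larger than those of all genes. Leaving out sham replicate 5 gave 6 and 6 of 10, with 70.0% and 61.6% of all genes called. Leaving out cell sheet replicate 1 as well, an alternative chosen after seeing the data, gave 6 and 6, with 67.1% and 60.7%. In the remote zone edgeR called 0 of 10, where 0.00660% of all genes were called, a single gene of 15157. Pdgfrb and Cspg4 had an unadjusted p under 0.05 there with edgeR, as did 1520 of all genes. DESeq2 called 0 of the 10 and 179 of 16364 genes tested. The comparisons share their sham or their MI libraries, so their values are set side by side and not counted as separate support.

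**Figure D2:**
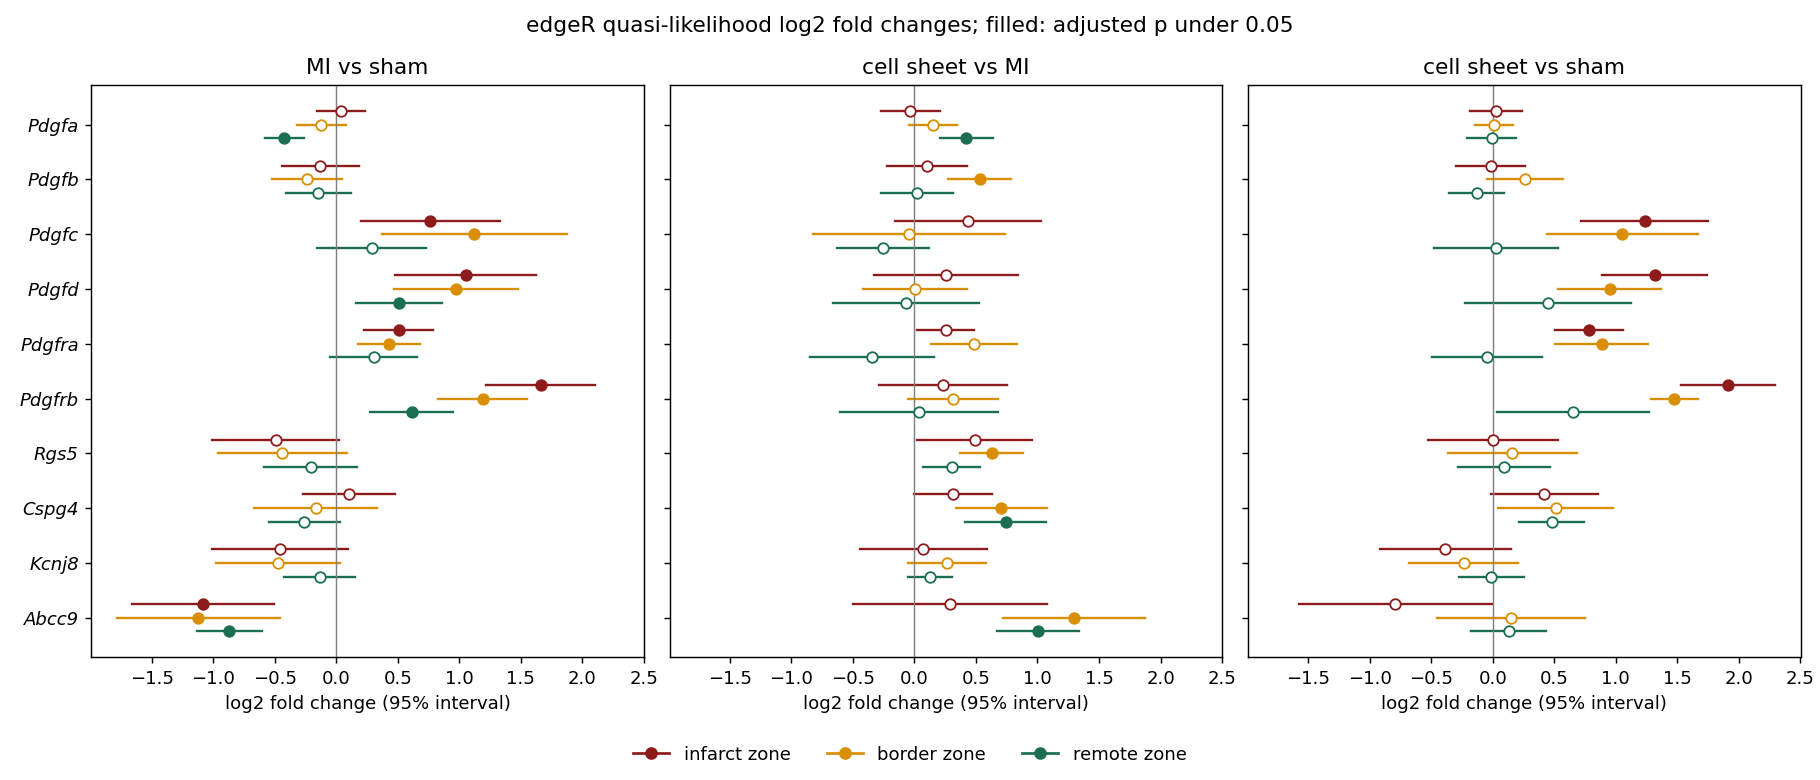
Log2 fold change (x axis) of the 10 genes (y axis) in MI relative to sham, cell sheet relative to MI and cell sheet relative to sham hearts in each zone (colour, n = 6 and 6), with bars for the 95% interval of the edgeR fit and filled points for an edgeR adjusted p under 0.05. Pdgfrb in the infarct zone stood at 1.66 in MI and 1.91 in cell sheet relative to sham hearts, while Abcc9 stood at -0.87 in the remote zone in MI relative to sham and at 1.00 in cell sheet relative to MI hearts.

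Ratios of 2 genes within a library do not depend on how libraries are scaled, and 5 of them were compared in 9 ways, 45 comparisons in all, by a two-sided exact permutation test of the mean log2 ratio whose smallest possible p with 6 and 6 animals is 0.00216. The ratio of the receptors moved toward Pdgfrb. In the infarct zone the log2 ratio of Pdgfra to Pdgfrb was -0.40 ± 0.36 against 0.68 ± 0.32 (SD, n = 6 each, exact permutation p = 0.00216, adjusted p = 0.0487) in cell sheet relative to sham hearts, with no overlap. Its remote zone values were -0.22 ± 0.22 against 0.39 ± 0.25 (SD, n = 6 each, exact permutation p = 0.00433, adjusted p = 0.0487). The border zone values were -0.069 ± 0.42 against 0.55 ± 0.24 (SD, n = 6 each, exact permutation p = 0.0108, adjusted p = 0.0609). These are 2 of 9 comparisons of this ratio that passed the adjustment. In MI relative to sham hearts it was -0.40 ± 0.53 against 0.68 ± 0.32 (SD, n = 6 each, exact permutation p = 0.00866, adjusted p = 0.0609) in the infarct zone, which did not pass. MI replicate 1, the animal with the low fibroblast marker sum, had the highest ratio of the MI border zone, at 0.87 against -0.57 to -0.24 in the other 5, and without it the receptor ratio passed in 4 comparisons. Between the cell sheet and MI infarct zones the mean log2 receptor ratio differed by -0.0047 with all animals and by 0.19 without MI replicate 1, when the MI mean was -0.59 ± 0.26 (SD, n = 5).

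The ratio of Kcnj8 to Abcc9, the pore to the regulatory subunit, also passed in 2 of 9 comparisons. Its log2 remote zone value was -2.20 ± 0.29 against -2.96 ± 0.21 (SD, n = 6 each, exact permutation p = 0.00433, adjusted p = 0.0487) in MI relative to sham hearts and -3.06 ± 0.32 against -2.20 ± 0.29 (SD, n = 6 each, exact permutation p = 0.00433, adjusted p = 0.0487) in cell sheet relative to MI hearts. Of the remote zone groups, MI hearts had the highest ratio, and the sham and cell sheet remote zones differed by -0.10 (exact permutation p = 0.55). In the border zone cell sheet hearts had -2.51 ± 0.45 against -1.47 ± 0.43 (SD, n = 6 each, exact permutation p = 0.00866, adjusted p = 0.0609) relative to MI. Of the 9 comparisons each, 0 passed for Pdgfa to Pdgfb, for Pdgfc to Pdgfd and for Rgs5 to Cspg4, where the number with an unadjusted exact permutation p under 0.05 was 2, 0 and 1. Calls of ratios close to the threshold depended on single animals, and most were lost on leaving out 1 animal, when the smallest possible p is larger.

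**Figure D3:**
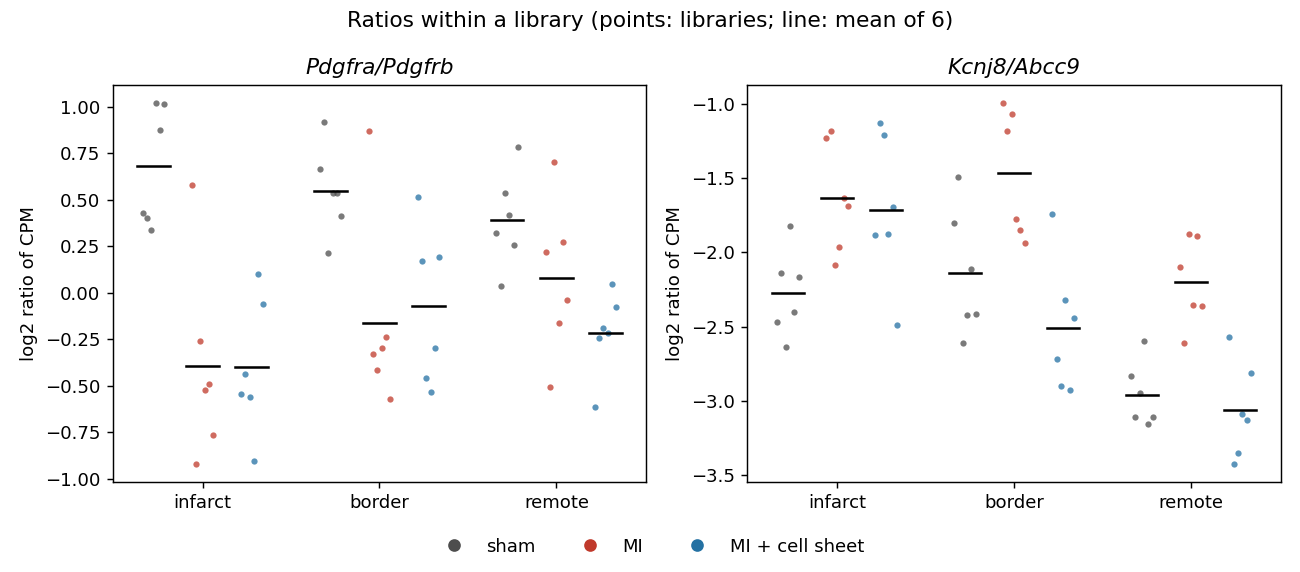
Log2 ratio of Pdgfra to Pdgfrb (left) and of Kcnj8 to Abcc9 (right) in each library (y axis, log2 ratio of CPM) by zone (x axis) and treatment (colour), where a point is 1 library and a line the mean of 6. In the infarct zone the receptor ratio lay between 0.34 and 1.02 in sham hearts and between -0.90 and 0.098 in cell sheet hearts.

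The size of an effect was compared between zones as a difference of log2 fold changes, with libraries of a treatment that carry the same number in the 3 zones taken as 1 animal. The labels do not state this link outright, and the study describes tissue of all 3 zones from each heart. The effect of MI relative to sham was larger in the infarct than in the remote zone for Pdgfrb, by 1.03 ± 0.18 (difference of log2 fold changes ± SE, n = 6 animals per treatment, edgeR adjusted p = 0.00206). For Pdgfa it was higher in the infarct than in the remote zone by 0.46 ± 0.11 (difference of log2 fold changes ± SE, n = 6 animals per treatment, edgeR adjusted p = 0.00655). These are 2 of 10 genes, where 28.9% of all genes tested were called in that difference. Without MI replicate 1 it was 5 of 10, with Pdgfd, Rgs5 and Kcnj8 added, where 34.5% of all genes were called. edgeR called 0 of 10 between the infarct and border zones, where 0% of all genes were called, and 0 of 10 between the border and remote zones, where it was 0% as well. At an unadjusted p under 0.05 edgeR had 1 of the 10 in the first, Pdgfrb, and 2 in the second, Pdgfa and Pdgfrb. Of all genes, 1430 and 3995 did so. Limma-voom, with animals as random effects, called 0 of the 10 in both. Over all genes tested it called 8 of 16766 and 607 of 16475.

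The effect of the cell sheet relative to MI could not be called different between zones for any of the 10 genes with all animals. Between the infarct and border zones edgeR called 0 of 10, where 0% of all genes were called, and the same held between the infarct and remote zones (0%) and between the border and remote zones (0%). The genes of the set with an unadjusted p under 0.05 in edgeR numbered 2, 2 and 3, beside 2012, 4190 and 3430 of all genes. Limma-voom called 0 of the 10 in each. Over all genes tested it called 147 of 17275, 322 of 16902 and 416 of 16784. Without cell sheet replicate 1 the difference between infarct and remote zone was called for Pdgfra, at 0.77 with an edgeR adjusted p of 0.0337. There 2011 of 17041 genes were called. Border calls for Pdgfb, Rgs5, Cspg4 and Abcc9 beside no infarct call are therefore not shown to be particular to the border zone. For Abcc9 the cell sheet effect in the infarct zone differed from that in the border zone by -1.18 ± 0.53 (difference of log2 fold changes ± SE, n = 6 animals per treatment, edgeR adjusted p = 0.41), and for Pdgfb by -0.42 ± 0.17 (difference of log2 fold changes ± SE, n = 6 animals per treatment, edgeR adjusted p = 0.34).

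Genes that process or bind PDGF ligands rose in the greater number after MI in the infarct and border zones. Of 10 such genes, 7 rose and 1 fell in the infarct, 7 rose and 1 fell in the border and 4 rose and 1 fell in the remote zone of MI relative to sham hearts. This is 8, 8 and 5 of 10 called in either direction, beside 49.9%, 41.7% and 25.8% of all genes called. Their median log2 fold changes were 1.64, 1.60 and 0.65. Plau, the urokinase that activates PDGF-D, rose in the infarct zone by 2.68 ± 0.72 (edgeR adjusted p = 0.00952), and its receptor Plaur rose in the border zone by 2.39 ± 0.49 (edgeR adjusted p = 0.00395). Pdgfrl, a receptor-like protein, rose by 2.47 ± 0.26 (edgeR adjusted p = 6.7e-05) in the infarct and 2.37 ± 0.26 (edgeR adjusted p = 0.000163) in the border zone. Pcsk6, a proprotein convertase, fell in these zones, at -0.85 ± 0.26 (edgeR adjusted p = 0.0163) and -0.90 ± 0.32 (edgeR adjusted p = 0.0422). The cell sheet brought no edgeR call among the 10 relative to MI in the infarct and remote zones, and in the border zone Lrp1, a receptor that associates with the beta receptor, rose by 0.89 ± 0.26 (edgeR adjusted p = 0.0312) and Furin, which cleaves the PDGF-A and PDGF-B precursors, by 0.35 ± 0.092 (edgeR adjusted p = 0.0219). These 2 of 10 (20.0%) in the border zone stand beside 18.0% of all genes called. Over all genes 0% were called in the infarct and 17.1% in the remote zone of that comparison. Set against sham, in cell sheet hearts 8 rose and 2 fell in the infarct and 7 rose and 0 fell in the border zone. This is 10 and 7 of 10 called, beside 57.9% and 43.6% of all genes.

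The intracellular adaptors and effectors of the receptors moved both ways. Of 23 genes, 4 rose and 5 fell in the infarct, 3 rose and 5 fell in the border and 1 rose and 6 fell in the remote zone after MI, and their medians of -0.0064, 0.088 and -0.066 lay near those of all genes. The shares called, 39.1%, 34.8% and 30.4%, were below those of all genes in the infarct and border zones (49.9% and 41.7%) and above in the remote zone (25.8%). The adaptor Shc1 rose by 1.39 ± 0.33 (edgeR adjusted p = 0.00508) and the kinase Src by 1.36 ± 0.33 (edgeR adjusted p = 0.00626) in the infarct zone. The phosphatase Ptpn11 fell there, at -0.91 ± 0.18 (edgeR adjusted p = 0.00237). Between cell sheet and MI hearts, 5 rose and 0 fell in the border zone, led by the docking protein Gab1 at 0.49 ± 0.11 (edgeR adjusted p = 0.0114), and 4 rose and 1 fell in the remote zone, led by the adaptor Crkl at 0.51 ± 0.082 (edgeR adjusted p = 0.00615). This is 21.7% of the 23 called in both zones, near the 18.0% and 17.1% of all genes. edgeR called 0 of the 23 in the infarct zone, where 0% of all genes were called. Against sham, 7 rose and 5 fell in the infarct zone of cell sheet hearts and 7 rose and 4 fell in the border zone. The shares called were 52.2% and 47.8%, beside 57.9% and 43.6% of all genes.

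Other genes associated with pericytes moved both ways in the infarct and border zones after MI, with more rising than falling, and those called in the remote zone all rose. Of 16 such genes, 6 rose and 2 fell in the infarct, 5 rose and 1 fell in the border and 4 rose and 0 fell in the remote zone after MI, with medians of 0.14, 0.19 and 0.12. The 8, 6 and 4 of 16 called in either direction were close to the 49.9%, 41.7% and 25.8% of all genes. Anpep, the aminopeptidase CD13, rose in the infarct zone by 3.24 ± 0.47 (edgeR adjusted p = 0.000439), and Tbx18, a transcription factor of mural cells and epicardium, by 1.25 ± 0.17 (edgeR adjusted p = 0.000254). Vtn, which encodes vitronectin, fell there, at -1.37 ± 0.47 (edgeR adjusted p = 0.0292), as did Angpt1, the pericyte ligand of the endothelial Tie2 receptor, at -1.30 ± 0.37 (edgeR adjusted p = 0.0129). CD13 is also found on myeloid cells and fibroblasts, and the macrophage marker sum had infarct zone medians of 588 CPM in sham and 5605 in MI hearts. The cell sheet and MI hearts showed no call among the 16 by edgeR in the infarct zone, where 0% of all genes were called. In the border zone 3 of the 16 were called (18.8%), near the 18.0% of all genes. In the remote zone it was 1 of the 16 (6.25%), below the 17.1% of all genes. Notch3, a Notch receptor of mural cells that the study itself followed, rose by 1.53 ± 0.25 (edgeR adjusted p = 0.00187) in the border and 0.97 ± 0.19 (edgeR adjusted p = 0.00973) in the remote zone. In the border zone Ednra, an endothelin receptor, rose by 0.41 ± 0.13 (edgeR adjusted p = 0.0430) and Foxs1, a forkhead factor, fell, at -0.47 ± 0.14 (edgeR adjusted p = 0.0339). Compared with sham, in cell sheet hearts 5 rose and 3 fell in the infarct and 7 rose and 3 fell in the border zone. The 8 of 16 called in the infarct zone were below the 57.9% of all genes called there. In the border zone the 10 of 16 were above the 43.6% of all genes.

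Cell type markers were summed in each library and set beside the 10 genes. Over the 54 libraries, which share the treatments and zones, log2 Pdgfrb had a Pearson r of 0.94 with the log2 fibroblast marker sum, and of 0.79 once the group means were removed. For Pdgfra these values were 0.88 and 0.69. Within its group, cell sheet replicate 1 was highest in both Pdgfrb and the fibroblast sum in the remote zone. MI replicate 1 was lowest of its group in both in the infarct zone, and both animals contribute to the r of Pdgfrb. The receptors thus followed the fibroblast sum both between and within groups, though Pdgfrb followed other lists as well. Its r was 0.91 with the myofibroblast, 0.86 with the smooth muscle and 0.85 with the other pericyte-associated sum. Within groups these were 0.66, 0.74 and 0.49. Pdgfra had r of 0.45 with the smooth muscle sum and -0.016 within groups. Rgs5 and Kcnj8 followed the endothelial sum, with r of 0.76 and 0.78 over all libraries and 0.85 and 0.84 within groups, and so did Pdgfb with 0.75 and 0.77. Sham replicate 5 was the lowest sham library for Rgs5, Kcnj8 and the endothelial sum in each zone, and it contributes to their values. Abcc9 had r of 0.71 with the cardiomyocyte sum and 0.79 within groups, and Pdgfc r of 0.81 with the macrophage and -0.84 with the cardiomyocyte sum. Against the macrophage sum Rgs5 had r of -0.73 over all libraries and -0.84 within groups, and sham replicate 5 contributes to these values. Cspg4, the NG2 gene, had r of 0.48 with the sum of the other pericyte-associated genes and 0.47 with the smooth muscle sum. Within groups these were 0.53 and 0.47. Pdgfa followed no list closely. These are descriptions over libraries that also share depth and composition, with no test. Of the 12 endothelial markers, 0 rose and 1 fell in the MI infarct and 0 rose and 2 fell in the MI border zone relative to sham. Over all genes 49.9% and 41.7% were called there. In the cell sheet border zone relative to MI 2 of the 12 were called, or 16.7%, beside 18.0% of all genes. Among them Cdh5 rose by 0.82 ± 0.15 (edgeR adjusted p = 0.00339). The platelet list, taken because platelets carry PDGF, was mixed over its 7 genes. Gp1bb had no count in any of the 54 libraries, and Ppbp and Gp9 stayed under 1 CPM in all of them. Pf4, Itga2b, Gp6 and Selp had counts in every library, with median levels of 33.2, 4.99, 6.46 and 6.05 CPM. Pf4 and Selp, which are also made by macrophages and by endothelium, rose in the MI infarct zone relative to sham, by 1.66 ± 0.30 (edgeR adjusted p = 0.00140) and 2.06 ± 0.38 (edgeR adjusted p = 0.00150), while Itga2b fell, at -1.17 ± 0.37 (edgeR adjusted p = 0.0205). The part of platelets in the ligand levels was not tested.

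**Figure D4:**
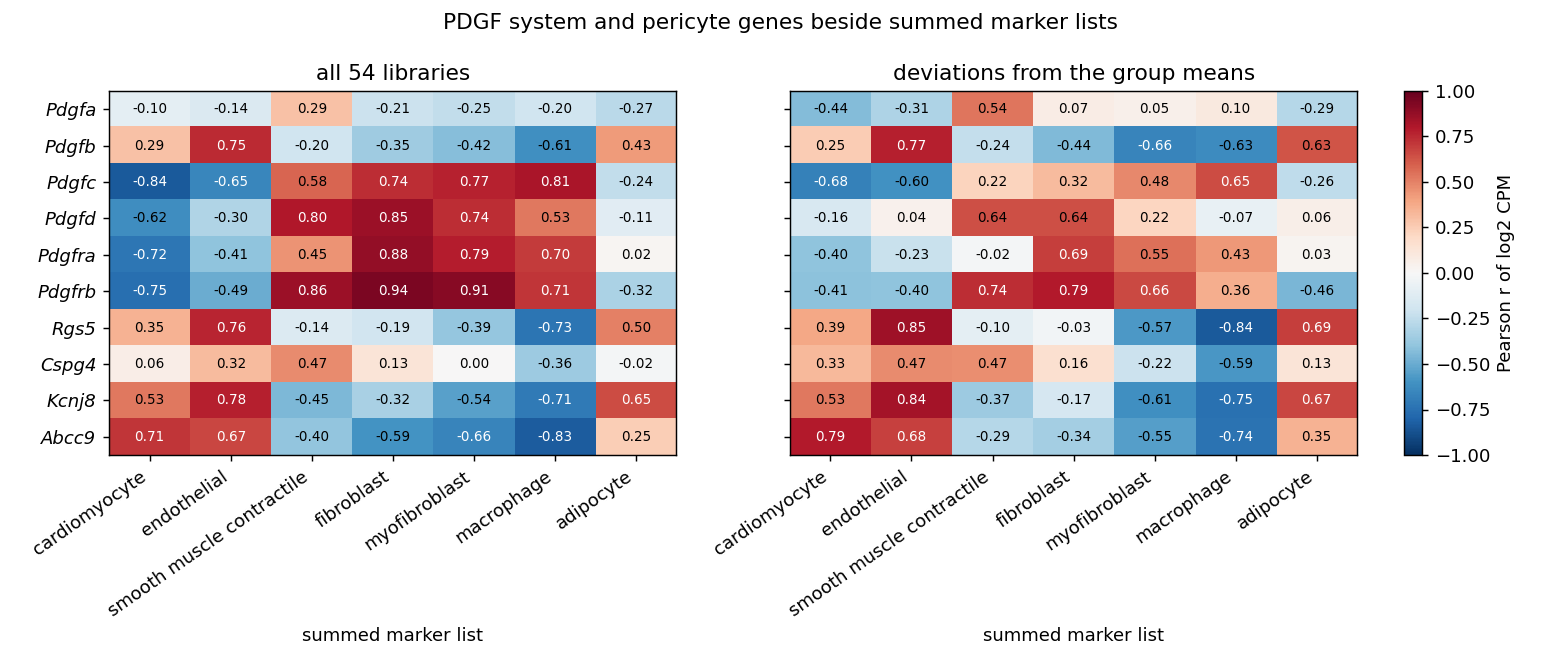
Pearson r between the log2 level of each of the 10 genes (rows) and the log2 sum of 7 lists of cell type markers (columns), over the 54 libraries on the left and over deviations from the group means on the right, as a colour scale from -1 to 1 with r printed in each cell. Pdgfrb and the fibroblast sum stood at 0.94 and Kcnj8 and the endothelial sum at 0.78 over all libraries.

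Among the 10 genes themselves, Pdgfd and Pdgfrb had r of 0.86, Rgs5 and Kcnj8 of 0.79, Pdgfb and Rgs5 of 0.74 and Kcnj8 and Abcc9 of 0.62 over the 54 libraries. Pdgfrb and Rgs5, both used as pericyte markers, had r of -0.26, and Pdgfc and Abcc9 of -0.75. The genes most like each were then listed by Pearson r of log2 CPM over the 54 libraries, among 14431 genes. For the ligands these were Sun2 (0.70), Nol6 (0.68) and Safb (0.66) for Pdgfa, Tjp1 (0.81), Sh3bp4 (0.80) and Cdh5 (0.80) for Pdgfb, Glul (0.92), Ddx41 (0.92) and Aoah (0.90) for Pdgfc and Scarf2 (0.90), Fkbp9 (0.90) and Pxdn (0.89) for Pdgfd. Cdh5 and Tjp1, near Pdgfb, encode an endothelial cadherin and a tight junction protein. For the receptors they were Cpxm1 (0.90), Cpq (0.89) and Bnc2 (0.89) for Pdgfra and Col5a1 (0.97), Col16a1 (0.97) and Cul7 (0.97) for Pdgfrb. Col5a1 and Col16a1 encode collagen chains. For the pericyte-associated genes they were Epn2 (0.86), Tjp1 (0.86) and Hspa12a (0.85) for Rgs5, Vcl (0.85), Ctif (0.85) and Bace1 (0.82) for Cspg4, C1qtnf9 (0.86), Prex2 (0.85) and Aqp1 (0.82) for Kcnj8 and Svil (0.97), Cacna1c (0.96) and Cds2 (0.96) for Abcc9. Cacna1c, near Abcc9, encodes the pore of the cardiac L-type calcium channel, and Aqp1, near Kcnj8, a water channel of endothelium.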

How the data were processed

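RNA from 54 left ventricular samples was measured by poly(A) RNA sequencing. The authors aligned the reads to the rat assembly mRatBN7.2 and deposited whole-number counts per gene, not normalized, and their own tests used DESeq2, which the submitters' processing notes also name. Neither the read counter nor a strand setting is given in the sources used here, so a gene and an antisense partner cannot be told apart. Human transcripts of the sheet were not analysed here. Whether reads of human cells that match the rat assembly added to the counts of cell sheet libraries was not tested. The 5 summary lines of each file, 17.0% to 42.8% of its counts, were left out. Groups came from the labels, and no pair of libraries within a group was identical (135 pairs).

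Comparisons used the quasi-likelihood F test of edgeR (version 4.0.16 in R 4.3.3, TMM, filterByExpr, Benjamini-Hochberg adjustment over all genes tested, threshold 0.05) on the 6 and 6 libraries of a zone. Differences between zones were interaction terms with the animal as a block. DESeq2 1.42.0, limma 3.58.1, other scalings and filters, a replicate block, all 9 groups in one fit and leaving out each animal were alternatives. Log2 CPM has an offset of 0.1. Ratios were compared by exact permutation tests (scipy 1.17.1), adjusted over 45 comparisons. Scripts were tested on simulated data. The genes, the lists and the promoter motifs were chosen with earlier results of these data known. All 10 genes are named in every comparison, from each list at most the 2 top risers and 2 top fallers by log2 fold change among those called, with Kcnj11 and Abcc8 in any case, and for each gene the 3 most like it. Promoter sequences are from RefSeq (GRCr8), and no coordinates were converted between builds.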

Additional observations from a re-analysis of the deposited data

Results flagged for a closer look

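In each group of 6 libraries, the gap of the highest or lowest library to its neighbour was divided by the range of the group on the log2 scale, and a gap ratio above Dixon's 95% critical value was taken as standing apart. Of 135 groups of gene levels and ratios checked, chance alone gives about 1 in 20.

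Sham replicate 5 was the animal that stood apart most often, and it was the lowest library for each gene named here. Its Rgs5 was 69.3 CPM against 154 to 178 in the other 5 (ratio 0.848) in the infarct, 60.4 CPM against 169 to 203 in the other 5 (ratio 0.849) in the border and 87.9 CPM against 171 to 219 in the other 5 (ratio 0.733) in the remote zone. Kcnj8 was 25.7 CPM against 57.0 to 68.7 in the other 5 (ratio 0.809) in its infarct and 26.0 CPM against 54.4 to 71.8 in the other 5 (ratio 0.727) in its border zone. In its border zone Pdgfb was 37.3 CPM against 53.0 to 63.5 in the other 5 (ratio 0.661) and Cspg4 16.7 CPM against 32.2 to 44.1 in the other 5 (ratio 0.675). Abcc9 in its remote zone was 279 CPM against 362 to 414 in the other 5 (ratio 0.663). Its log2 ratio of Pdgfc to Pdgfd in the infarct zone was the highest, at 1.24 against -0.39 to 0.15 in the other 5 (gap ratio 0.670).

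In the remote zone cell sheet replicate 1 was highest for Pdgfrb, at 357 CPM against 106 to 157 in the other 5 (ratio 0.676), and for Pdgfc, at 11.5 CPM against 6.50 to 7.89 in the other 5 (ratio 0.662). MI replicate 1 was lowest for Pdgfrb in the infarct zone, at 141 CPM against 274 to 370.0 in the other 5 (ratio 0.691), and highest for the log2 ratio of Pdgfra to Pdgfrb in the border zone, at 0.87 against -0.57 to -0.24 in the other 5 (gap ratio 0.767). Sham replicate 6 was lowest for Pdgfrb in the infarct zone, at 79.4 CPM against 96.5 to 107 in the other 5 (ratio 0.644).

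The effect of MI relative to sham differed between the infarct and remote zones for Pdgfa, by 0.46, and for Pdgfrb, by 1.03, as differences of log2 fold changes with an edgeR adjusted p of 0.00655 and 0.00206.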

How the results depend on the processing

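Counts of genes called stayed within 1.5 times the main count in most alternatives. Scaling by library size without TMM factors moved the median log2 fold change of all genes, in MI relative to sham from -0.021 to 0.24 in the infarct and from -0.022 to 0.17 in the border zone, and in cell sheet relative to sham from 0.015 to 0.28 and from -0.030 to 0.24. Changes here are relative to TMM. With that scaling 7 genes were called in cell sheet relative to sham in the infarct and 7 in the border zone, and Pdgfb in cell sheet relative to sham in the infarct zone turned from -0.017 to 0.26 (edgeR adjusted p = 0.0413).

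Leaving out 1 animal gave 8 called genes at most and 4 at least in MI relative to sham in the border zone, 3 to 7 in cell sheet relative to MI in the remote zone, 2 to 5 in the difference of MI effects between infarct and remote zone, and 0 to 1 in that of cell sheet effects between the same zones. The highest counts came from leaving out sham replicate 5, cell sheet replicate 1, MI replicate 1 and cell sheet replicate 1, in this order. Over all genes tested these fits called 9641 of 15849, 6450 of 15502, 5727 of 16587 and 2011 of 17041. The lowest in the MI border zone came from leaving out sham replicate 3 or MI replicate 2 or 3. These fits called 5068 of 15974, 5271 of 15765 and 5084 of 15796 genes. Of 9 comparisons each, 0 to 4 passed for the ratio of Pdgfra to Pdgfrb, 0 to 3 for Kcnj8 to Abcc9 and 0 to 1 for Rgs5 to Cspg4.

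Animals of different treatments share only a replicate number: the correlation of the deviations of same-numbered libraries ran from -0.62 to 0.51, and in no comparison did all 6 pairs exceed 0.1. With a replicate block the count was 0 in cell sheet relative to MI in the remote zone (edgeR adjusted p of 0.0742 for Pdgfa, 0.0540 for Cspg4 and 0.0509 for Abcc9). Of all 15374 genes tested there, the block left 2 called, against 2623 in the main fit. With the block 0 comparisons passed for the ratios of Pdgfra to Pdgfrb and of Kcnj8 to Abcc9, where the smallest possible p of the paired test cannot pass the adjustment. The block also took Pdgfc in the MI border zone to an edgeR adjusted p of 0.10 and Pdgfd in the MI remote zone to 0.0569. Pdgfd in the MI remote zone also missed the threshold with no filter on low counts (0.0643) and with all 9 groups in one fit (0.13).

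Single-gene values in comparisons of 2 groups were also counted over the alternatives other than leaving out a single animal. These include the fit without both sham replicate 5 and cell sheet replicate 1, chosen after seeing the data. Of the values, 603 kept direction and side of the threshold and 31 changed sign while not called in either fit. A further 18 crossed to under the threshold and 7 to above it, and 1, the Pdgfb value above, changed sign with a call.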
